A study of Rattus norvegicus with 5 samples.

Results

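In the rat heart after myocardial infarction, 177 genes were higher than in the untreated infarct in both groups that received the nitric oxide donor SNAP, once as an injection (SNAP) and once through a hydrogel suture (S-DTMS). They were chosen from the 20646 genes of the deposited table by a rule on measured values. On the scale log2(FPKM + 1), where FPKM counts the fragments of a gene per kilobase of its length and scales them to the size of the library, a gene had to lie at least 1 above MI in the SNAP library and at least 1 above MI in the S-DTMS library. The rule took 1.29% of the 13769 genes that reached an FPKM of 1 in at least 1 library, and every gene it took was among these. The changes from MI in SNAP and in S-DTMS are therefore given as a description, and none of them is a finding about these genes.

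Male SD rats, aged 7 to 8 weeks in the labels, formed the groups Normal (no infarction), MI (infarcted and left untreated), SNAP (infarcted, with the donor injected into the infarcted area), DTMS (infarcted, with the plain microchanneled polyvinyl alcohol and polypyrrole suture) and S-DTMS (infarcted, with that suture used to deliver SNAP; the sample label spells it S-DTNS). Infarction was made by ligation of the left anterior descending artery in all groups but Normal, and left ventricular wall was sequenced. The labels place the sampling at 1 month and the methods at a week after therapy. The legend of the study's expression figure speaks of independent biological replicates, but each group is 1 library here, and it is not stated whether that library pooled several rats. No difference could therefore be set against the spread between rats, and p-values are not given.

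SNAP releases nitric oxide, which activates soluble guanylate cyclase in vascular and cardiac cells. The cyclic GMP formed there acts through protein kinase G to relax vessels and to modulate contraction, growth and gene expression. In an infarct, nitric oxide is known for its effects on blood flow, leukocyte adhesion and vessel growth. DTMS without the donor serves here as the control for the suture itself. The methods describe saline given through the suture's reservoir to a group they call shank, which appears to be DTMS. No infarcted group was injected with vehicle alone, so SNAP minus MI includes the injection itself.

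The table holds rat Ensembl identifiers without gene names. None of them could be paired with a symbol through the RefSeq table used here, so the planned gene lists, the markers of heart and other cell types and the promoter sequences could not be applied to these genes. The genes are described by their levels in the 5 libraries, and only the identifiers of the 2 with the largest changes are printed. In a piece of ventricular wall, more cells of a type and more RNA per cell cannot be told apart.

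Whole fragments could be worked out from the FPKM steps, which gave 16731024 to 17379225 fragments per library, 0.977 to 1.02 times the depth of Normal. The S-DTMS library stood apart from the others. It differed from each of them by at least 1 at 1448 to 2000 of the genes tested, whereas the other 6 pairs of libraries were this far apart at 555 to 1224 genes. The middle of all genes tested was also shifted, by -0.14 in SNAP and by 0.15 in S-DTMS relative to MI on the log2 scale, and by 0.12 in Normal and -0.06 in DTMS.

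SNAP was at least 1 above MI at 319 genes, or 2.32% of those tested, and S-DTMS at 1211 genes, or 8.8%. The 177 genes made up 55.5% of the first list and 14.6% of the second. Their median change from MI was 1.47 in SNAP (quartiles 1.18 and 1.88, highest 4.89) and 1.75 in S-DTMS (quartiles 1.41 and 2.38, highest 6.28). Relative to the shift of all genes tested, these medians were 1.61 and 1.6, and the larger as-deposited median of S-DTMS went with that shift. The smaller of a gene's 2 changes was under 1.2 for 66 of the 177 genes and at least 2 for 24.

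**Figure D1:**
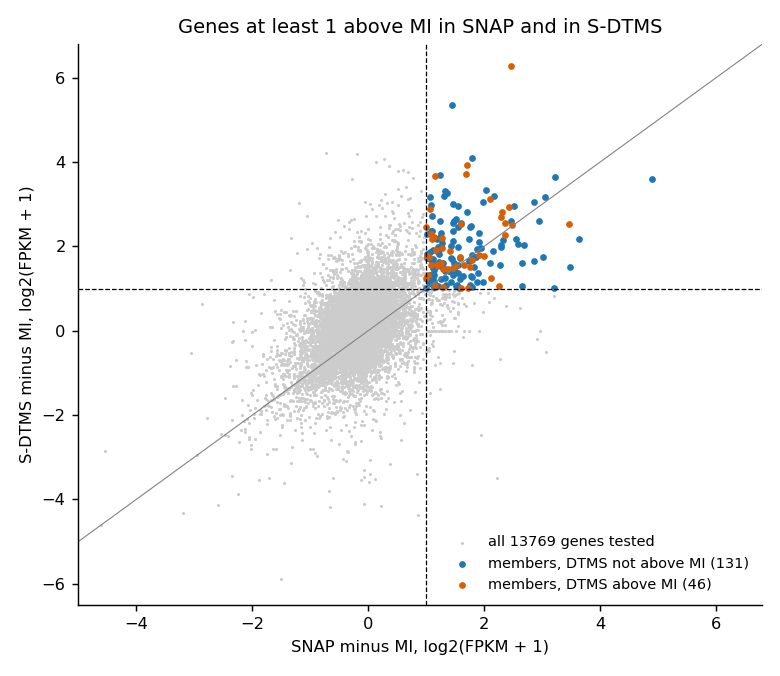
Each point is a gene, with its difference SNAP minus MI on the x axis and S-DTMS minus MI on the y axis, both in log2(FPKM + 1). The dashed lines mark the limit of 1, the thin line marks equal differences, grey points are the 13769 genes tested, and colours split the 177 chosen genes by whether DTMS also lay at least 1 above MI (46 genes) or not (131 genes).

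Levels of the 177 genes spanned a wide range. The median FPKM was 10.3 in Normal, 4.86 in MI, 18.2 in SNAP, 7.87 in DTMS and 26.0 in S-DTMS, so the SNAP and S-DTMS libraries were the high ones, Normal and DTMS lay between, and MI was lowest. Over all genes tested, the median FPKM was 8.47, 7.44, 6.57, 7.02 and 8.71 in the same order of libraries. An FPKM of 100 or more was reached by 6 of the 177 genes in MI, 29 in SNAP and 33 in S-DTMS. MI was the lowest of the 5 libraries at 118 of the 177 genes (66.7%, beside 15.6% of all genes tested), DTMS at 38 (21.5%, beside 20%) and Normal at 13 (7.34%, beside 7.04%). S-DTMS was the highest at 98 (55.4%, beside 43.1%), SNAP at 52 (29.4%, beside 5.93%), Normal at 16 (9.04%, beside 25.3%) and DTMS at 11 (6.21%, beside 9.78%). By putting MI low and the SNAP groups high, the rule also limited how often Normal or DTMS could be lowest or highest. Tied lowest values were not counted. Together the genes held 1.70% of all fragments in MI, 2.99% in Normal, 3.68% in DTMS, 5.49% in SNAP and 5.79% in S-DTMS.

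The largest change shared by both SNAP groups was that of ENSRNOG00000007607. Its FPKM was 7.05 in Normal, 7.28 in MI, 245 in SNAP, 4.11 in DTMS and 98.6 in S-DTMS. The 3 libraries without the donor lay far below the 2 with it, and the SNAP library was higher than S-DTMS. Among those 3, DTMS was lowest, with a fold over MI of 0.565 (95% interval 0.469 to 0.679). The fold over MI was 33.6 in SNAP (95% interval 30.1 to 37.7) and 13.5 in S-DTMS (12.1 to 15.2). These exact (Clopper-Pearson) intervals come from the fragments of the 2 libraries and cover counting error only, not the variation between rats.

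The next was ENSRNOG00000023509, with an FPKM of 8.63 in Normal, 2.61 in MI, 32.9 in SNAP, 3.89 in DTMS and 44.4 in S-DTMS. Here Normal lay above MI and DTMS, and S-DTMS was the highest library. The fold over MI was 12.6 in SNAP (10.2 to 15.7) and 17.0 in S-DTMS (13.8 to 21.1).

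Not all of the strong changes kept that form. The gene ranked 6 by its smaller change had an FPKM of 73.5 in Normal, 99.9956 in MI, 1109 in SNAP, 711 in DTMS and 587 in S-DTMS, and all 3 treated libraries were high. The gene ranked 8 had 222 in Normal, 39.4 in MI, 224 in SNAP, 256 in DTMS and 229 in S-DTMS, so that MI alone was low. The gene ranked 9 had 58.3 in Normal, 3.31 in MI, 22.9 in SNAP, 9.13 in DTMS and 335 in S-DTMS, a span in which the suture with SNAP stood far above the injection. These patterns are the ones that the split by DTMS and by Normal separates.

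The most abundant of the 177 genes in S-DTMS had an FPKM of 665 in Normal, 456 in MI, 1479 in SNAP, 1015 in DTMS and 6954 in S-DTMS. The most abundant in SNAP had 938 in Normal, 963 in MI, 3816 in SNAP, 1434 in DTMS and 2147 in S-DTMS. Each SNAP group thus had its own leading gene. S-DTMS had the larger change from MI at 120 of the 177 genes and SNAP at 57. The median of S-DTMS minus SNAP was 0.24, beside 0.31 over all genes tested. With that positive median, S-DTMS was the higher library at most genes tested too, so its lead was not particular to the 177. S-DTMS was at least 1 above SNAP at 34 genes (19.2% of the 177, beside 9.98% of all genes tested). SNAP was at least 1 above S-DTMS at 9 (5.08%, beside 3.34%). The rule used both of these libraries and set no upper limit on either, so these shares are a description and not an excess to be read.

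At the limit itself, the gene just inside had an FPKM of 0.537 in MI, 2.07 in SNAP and 7.40 in S-DTMS, with changes of 1.000 and 2.451, and the next had 2.60, 6.21 and 6.25, with changes of 1.000 and 1.009. Just outside lay a gene with 2.84, 8.77 and 6.68, whose changes were 1.346 and 0.999, and another with 2.59, 6.09 and 15.7, whose changes were 0.984 and 2.218. Nothing in these values separates the genes on either side.

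**Figure D2:**
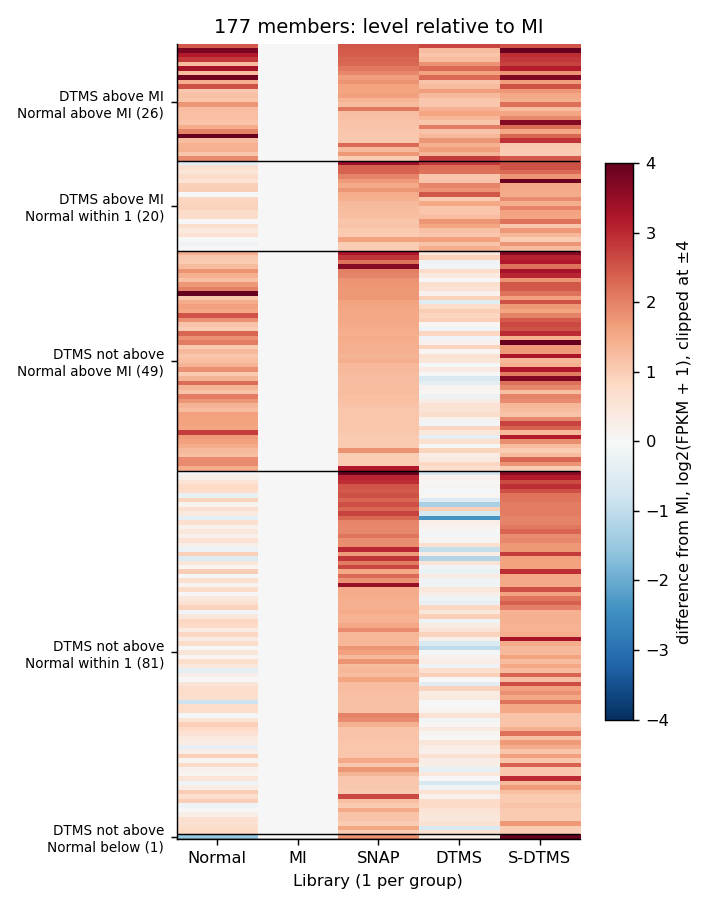
Rows are the 177 genes and columns the 5 libraries, coloured by the difference from MI in log2(FPKM + 1), which is 0 for MI itself and clipped at 4 in either direction. Rows are grouped by whether DTMS and Normal lay at least 1 above MI, and the largest block holds the 81 genes at which neither did and Normal stayed within 1 of MI.

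The DTMS library shows how far the suture without the donor shared these changes. DTMS was at least 1 above MI at 46 of the 177 genes (26.0%) and at least 1 below it at 4 (2.26%), where 1.46% and 3.19% of all genes tested passed these limits. DTMS was higher than MI by any amount at 134 genes (75.7%, beside 41.7%). The median of DTMS minus MI was 0.47, beside -0.06 over all genes tested. This contrast uses the same MI library whose low values chose the genes, so a positive shift had to follow in part and the share above MI cannot be read as a response to the suture.

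Measured along the distance from MI to the mean of SNAP and S-DTMS, DTMS lay at a median of 28.1% of the way. It was below MI at 38 genes, between 0 and 25% at 45, between 25 and 50% at 38, between 50 and 75% at 22, between 75 and 100% at 20 and beyond the mean of the SNAP groups at 14. The split at 1 cuts through a continuous spread, since DTMS lay between 0.8 and 1 above MI at 16 genes and between 1 and 1.2 at 14. The pair nearest the limit from below had DTMS changes of 0.97 and 1.00 (an unrounded 0.9972) and the pair nearest from above 1.05 and 1.06.

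Among the 46 genes at which DTMS was also above MI, the median FPKM was 8.79 in Normal, 1.95 in MI, 8.64 in SNAP, 8.54 in DTMS and 12 in S-DTMS. By these medians DTMS was near SNAP and Normal, and MI was lowest. Single genes differed from this, as Normal was at least 1 above DTMS at 7 of the 46 and at least 1 below it at 9. Among the other 131 genes the medians were 10.8, 6.77, 26.0, 7.30 and 40.3 in the same order, and DTMS stayed near MI. The changes from MI were alike in size in both sets, with medians of 1.49 and 1.47 in SNAP and of 1.79 and 1.73 in S-DTMS. The 46 genes were split off by this same difference, so these levels are a description.

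The place of Normal gives a further split. Normal was at least 1 above MI at 75 of the 177 genes (42.4%, beside 4.74% of all genes tested), within 1 of MI at 101, and at least 1 below MI at 1 (0.565%, beside 2.22%). Normal was higher than MI by any amount at 154 genes (87.0%, beside 64.5%). The median of Normal minus MI was 0.82, beside 0.12 over all genes tested. The MI library is shared with the rule here too. Normal lay at a median of 51.7% of the way from MI to the mean of the SNAP groups, and beyond that mean at 28 genes.

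Where Normal was above MI, SNAP and S-DTMS differed from Normal by medians under 1. The rule and this split both chose these genes for a low MI, so the values cannot be read as a return to the normal level. Over all genes tested, SNAP was at least 1 above Normal at 1.79% and at least 1 below it at 7.1%. For S-DTMS these shares were 4.63% and 5.88%, so lying within 1 of Normal was common over all genes too. For these 75 genes, the median FPKM was 10.7 in Normal, 3.17 in MI, 11.3 in SNAP, 7.87 in DTMS and 19.1 in S-DTMS. SNAP minus Normal had a median of -0.13 and S-DTMS minus Normal of 0.39. Both SNAP groups were within 1 of Normal at 49 of the 75 genes, S-DTMS alone was at least 1 above Normal at 14, both were above it at 4, SNAP alone at 2, both were below it at 3, and the remaining 3 had SNAP at least 1 below Normal with S-DTMS not so.

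Where Normal was within 1 of MI, the rule itself placed both SNAP groups above Normal at all 101 genes, so the values describe by how much. The median FPKM of these 101 genes was 9.81 in Normal, 7.60 in MI, 26.1 in SNAP, 8.32 in DTMS and 27.4 in S-DTMS, and the medians of SNAP and S-DTMS minus Normal were 1.15 and 1.31. Both SNAP groups were at least 1 above Normal at 47 of them, S-DTMS alone at 18, SNAP alone at 9 and neither at 27. The single gene with Normal below MI had an FPKM of 0.907 in Normal, 4.48 in MI, 17.9 in SNAP, 5.10 in DTMS and 92.9 in S-DTMS, so that it was lowest in the uninjured heart and highest with the loaded suture.

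Over all 177 genes, SNAP was at least 1 above Normal at 63 (35.6%, beside 1.79% of all genes tested) and at least 1 below it at 6 (3.39%, beside 7.1%). S-DTMS was at least 1 above Normal at 85 (48.0%, beside 4.63%) and below it at 3 (1.69%, beside 5.88%). The high shares above Normal and the low shares below it follow in part from the rule, which required high SNAP and S-DTMS values. This also holds for the counts of both groups together. Both SNAP groups were at least 1 above Normal at 52 (29.4%, beside 0.654%) and at least 1 below it at 3 (1.69%, beside 2.56%). Of those 3, the widest gap was at a gene with an FPKM of 921 in Normal, 1.68 in MI, 7.88 in SNAP, 1.99 in DTMS and 11.1 in S-DTMS. The second had 97.6 in Normal, 0.771 in MI, 2.75 in SNAP, 3.48 in DTMS and 7.74 in S-DTMS. Both SNAP groups passed the rule at these genes while they remained far below the uninjured heart.

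**Figure D3:**
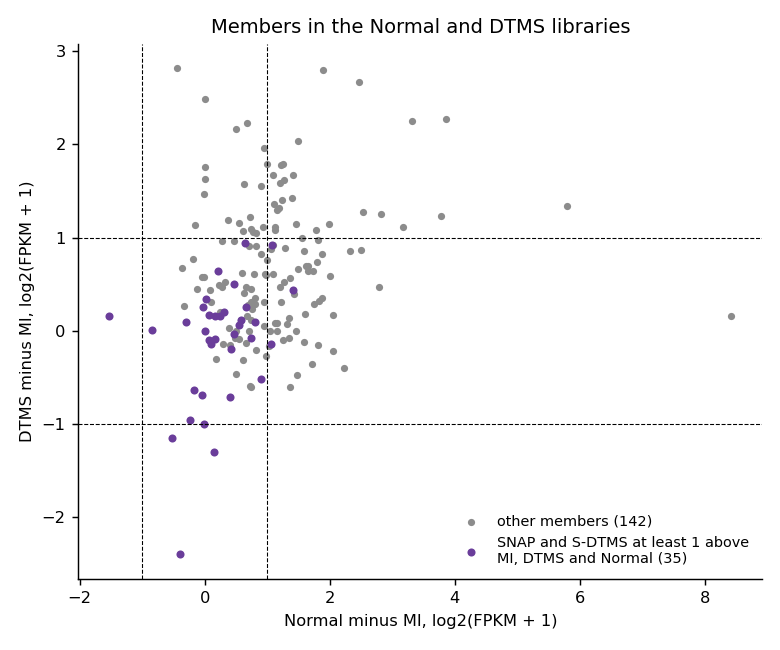
Each point is 1 of the 177 genes, with Normal minus MI on the x axis and DTMS minus MI on the y axis, both in log2(FPKM + 1), and the dashed lines mark differences of 1 and -1. Purple points are the 35 genes at which SNAP and S-DTMS were each at least 1 above MI, DTMS and Normal.

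Crossing both splits, DTMS and Normal were both above MI at 26 genes, DTMS alone at 20, Normal alone at 49 and neither at 82, including the gene with Normal below MI. At the 26 genes the median FPKM was 1.70 in MI, against 9.83 in Normal, 7.79 in SNAP, 8.30 in DTMS and 10.6 in S-DTMS. At the 49 genes both MI and DTMS were low, with 4.86 and 7.73, against 14.6 in Normal, 20.2 in SNAP and 39.4 in S-DTMS. At the 20 genes the treated libraries had 13.2 in SNAP, 11.5 in DTMS and 12.9 in S-DTMS, against 5.86 in Normal and 2.90 in MI. The splits were made on these same differences, so the levels are a description.

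The donor groups stood above every other library at a smaller set. S-DTMS was at least 1 above DTMS at 109 of the 177 genes (61.6%, beside 9.51% of all genes tested) and below it at 0 (beside 4.61%). SNAP was at least 1 above DTMS at 89 (50.3%, beside 2.08%) and below it at 2 (1.13%, beside 1.95%). As the rule chose high SNAP and S-DTMS values, these counts describe how far DTMS fell short of them. Both were at least 1 above DTMS as well as MI at 82 of the 177 genes. At 35 of these (19.8% of the 177) they were also each at least 1 above Normal. Any gene that meets these limits belongs to the 177, so both counts are the same over all 13769 genes tested. Over the 35 genes, the median FPKM was 9.39 in Normal, 6.77 in MI and 4.92 in DTMS, against 35.5 in SNAP and 44.4 in S-DTMS. The medians of Normal minus MI and of DTMS minus MI were 0.16 and 0.00 in this set, which was chosen for low values in those libraries. The medians of SNAP and S-DTMS minus MI were 2.28 and 2.04. SNAP was the higher of the 2 at 18 genes and S-DTMS at 17. Of the 35, 13 were among the 24 genes whose smaller change was at least 2. The 35 were chosen on these same SNAP and S-DTMS values, so such an overlap had to follow in part.

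**Figure D4:**
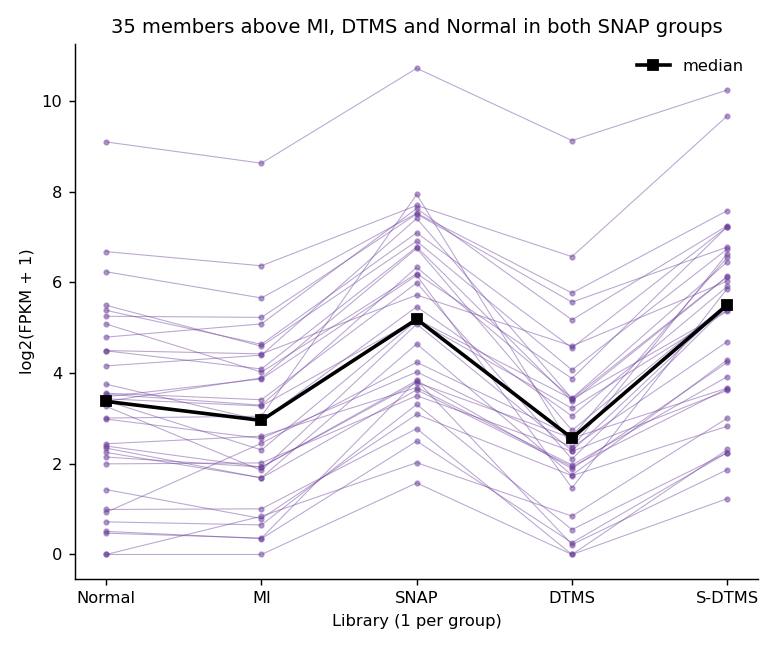
Each line is 1 of the 35 genes at which SNAP and S-DTMS were each at least 1 above MI, DTMS and Normal, with the 5 libraries on the x axis and log2(FPKM + 1) on the y axis. The black line is the median over the 35 genes, which is lowest in DTMS and high in SNAP and S-DTMS.

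Any of the 177 genes with DTMS at least 1 below MI meets the limits against MI and DTMS through the rule. Only the limit against Normal is then open. At 4 of the 177 genes DTMS was at least 1 below MI, and all 4 belonged to these 35. The lowest had an FPKM of 10.1 in Normal, 13.6 in MI, 70.4 in SNAP, 1.77 in DTMS and 57.3 in S-DTMS, with 364 fragments in MI and 47 in DTMS. The second had 10.8, 9.65, 62.5, 3.30 and 43.3, and the third 9.39, 13.9, 107, 5.67 and 45.5 in the same order of libraries. DTMS was the lowest library at each of these, with counting intervals of the DTMS over MI fold from 0.0935 to 0.176, from 0.290 to 0.402 and from 0.356 to 0.468. The fourth rested on 1 fragment in MI and 0 in DTMS, and its difference was not detectable at this depth.

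Normal against DTMS was the only pair of libraries that the rule did not use. Normal was at least 1 above DTMS at 48 of the 177 genes (27.1%, beside 5.46% of all genes tested) and at least 1 below it at 11 (6.21%, beside 1.63%). Both shares were above those of all genes tested. Of the genes past the limit, 81.4% were higher in Normal among the 177 and 77.0% among all genes tested. As deposited and over all 177 genes, the direction was thus close to that of the background. The count of lower genes rested in part on short genes with few fragments. Among the 149 genes with counting intervals above 1 in both SNAP groups, described below, 42 were higher and 6 lower in Normal. All genes tested were not restricted in this way, so these 2 counts have no background beside them. Normal was higher than DTMS by any amount at 117 of the 177 genes (66.1%, beside 71.6%), and the median of Normal minus DTMS was 0.47, beside 0.21. With libraries rescaled so that the typical gene kept the same level in each (the median of ratios), the 177 genes split into 34 higher and 16 lower in Normal (68.0% higher), and all genes tested into 493 and 339 (59.3% higher). Relative to the median change, 70.6% and 60.6% were higher in Normal. On both of these scales the gap to all genes tested was wider than as deposited.

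The chosen genes included many short ones. Gene lengths taken from the FPKM steps had a median of 1630 bases (quartiles 414 and 2650), beside 2120 (1280 and 3390) over all genes tested. Under 300 bases lay 41 of the 177 genes (23.2%), beside 817 of all genes tested (5.93%). For such genes 1 fragment is worth a large FPKM, and 21 of the 177 genes had 0 fragments in MI and 13 more had 1 to 3.

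As a description of counting error in the values that chose the genes, and not as support for the choice, the counting interval of the fold over MI lay above 1 in both SNAP and S-DTMS at 149 of the 177 genes, and above 2 in both at 117. The other 28 genes were all under 300 bases, from 47 to 282 with a median of 90.5. They had at most 10 fragments in MI, 27 in SNAP and 22 in S-DTMS. These lengths and fragments were the smallest that made all values whole. Both may be too low where the fragment numbers of a gene share a divisor. The interval lay above 1 in SNAP alone at 5 of these 28, in S-DTMS alone at 7, and in neither at 16, where the differences were not detectable at this depth. Among the 149 genes, DTMS was at least 1 above MI at 33 (22.1%) and Normal at 61 (40.9%), both SNAP groups were above Normal at 43, and Normal was above DTMS at 42 and below it at 6. Of the 35 genes with SNAP and S-DTMS above every other library, 32 were among the 149.

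**Figure D5:**
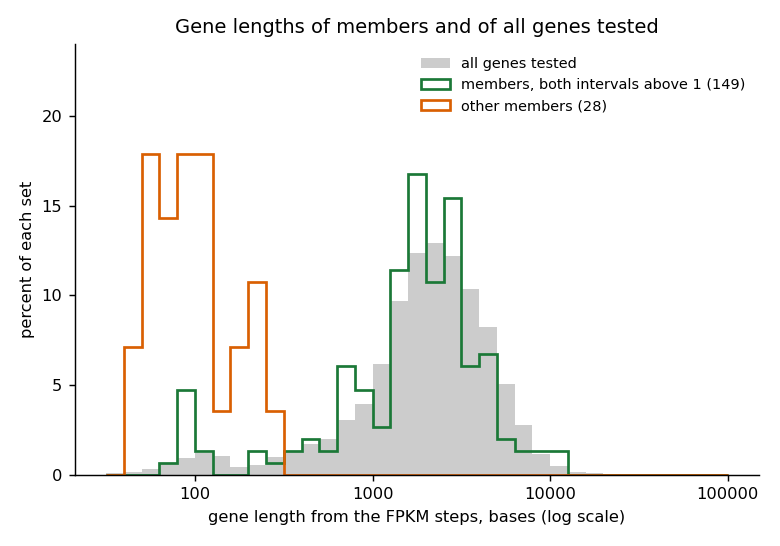
Histogram of gene length in bases, worked out from the FPKM steps, on a log axis, as percent of each set. Of the 149 genes whose counting intervals lay above 1 in both SNAP groups 13 (8.72%) lie under 300 bases, beside 5.93% of all genes tested, whereas the other 28 all lie there.

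Without the S-DTMS library, the rule reduces to the 319 genes at least 1 above MI in SNAP. DTMS was also above MI at 71 of these (22.3%), Normal was above MI at 109 (34.2%) and below it at 2, and SNAP was above Normal at 134. The shares with DTMS and with Normal above MI stand beside 1.46% and 4.74% of all genes tested. This contrast still shares the MI library whose low values chose the 319 genes, so an excess had to follow in part. It is therefore no check on the split.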

How the data were processed

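The authors deposited 1 table of FPKM values for 20646 rat genes in 5 libraries (NEBNext Ultra, Illumina NovaSeq). Per the labels' processing notes, HTSeq was used, and the build named there is mm9, a mouse build, although the identifiers are rat Ensembl genes. The aligner and annotation are not given in the sources used here. Columns were matched to samples by the labels' descriptions, and 0 columns belonged to other samples.

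Fragments, gene lengths and library totals were recovered by requiring whole fragments and whole lengths, which gave totals within 0.0023 of whole numbers and fragments for all 20304 genes above 0. A gene whose fragment numbers share a divisor may really be longer and hold more fragments than it was assigned. The procedure was also run on simulated data built from the recovered lengths and fragments, with an outcome not reported here. Such a run cannot show how often the real lengths and fragments were assigned too low. Differences were taken on log2(FPKM + 1). A gene was counted when it differed by at least 1, a limit that no test backs since there is 1 library per group. Intervals are exact 95% and cover counting error only. The authors' differential test with edgeR needs replicates and was not repeated.

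The members and lists were chosen with earlier results of these data known. The 2 identifiers printed are those whose smaller change was largest, given FPKM values of 2 or more in both SNAP groups. Other genes, and the set of 35, were singled out after their values were seen. Lists of gene names were not applied, as 0 identifiers matched a name. There were 7 other settings listed at the start and 2 added after seeing the data. Python 3.11.15, NumPy 2.4.6, pandas 2.3.3, SciPy 1.17.1 and Matplotlib 3.10.9 were used.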

Additional observations from a re-analysis of the deposited data

Results flagged for a closer look

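At 4 genes SNAP and S-DTMS were each at least 1 above MI while DTMS was at least 1 below it. Of these, 3 were among the 149 genes with both counting intervals above 1, and the fourth rested on 1 fragment in MI and 0 in DTMS. The difference between treatments was not tested, since each group has 1 library. The share of such genes below MI in DTMS, 2.26% of the 177, lay near the 3.19% of all genes tested.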

How the results depend on the processing

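Of the 42 values under the 7 other settings listed at the start, 26 stayed within 1.5 times the reported count. The 6 counts (genes in the set, DTMS above MI, Normal above MI, Normal below MI, both SNAP groups above Normal, Normal above DTMS) were 177, 46, 75, 1, 52 and 48. With a pseudocount of 0.1 they were 533, 199, 299, 7, 162 and 170, since low genes are then damped less. When a log2 change of 2 was required they were 24, 5, 5, 0, 5 and 2, as a stricter limit must give. As TPM, the set held 246 genes, of which 73 (29.7%) had DTMS above MI, 119 (48.4%) Normal above and 3 (1.22%) Normal below MI. With at least 20 fragments per contrast, 30 had DTMS above MI, and 143 of the 177 genes remained. Median-of-ratios scaling gave 192 genes, 154 of them shared with the 177, and relative to the median change 195, with 156 shared. Without the S-DTMS library, an alternative added after seeing the data, 319 genes entered, and the counts were 71 with DTMS above MI, 109 with Normal above and 2 with Normal below MI, 134 with SNAP above Normal and 67 with Normal above DTMS. Restricting to genes clear of counting error, also added then, left each count within 1.5 times. No paired analysis was possible because every group consists of 1 library. Counts over gene lists were not made, since no identifier had a symbol.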
